A study of Mus musculus with 24 samples.

Results

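The 10 chemokine genes described here, Ccl2, Ccl3, Ccl4, Ccl5, Ccl6, Ccl12, Cxcl5, Cxcl10, Cxcl14 and Cxcl16, were taken by symbol from the 55291 genes of the deposited tables, and all 10 were found and passed the filter on low counts. They comprise 6 CC and 4 CXC chemokines. Their messages were read by MeRIP-seq of hippocampal poly(A) RNA from 12 mice, a method in which an antibody pulls down transcripts that carry N6-methyladenosine (m6A). From every mouse there was an input library, a readout of expression, and a library of the immunoprecipitated (IP) RNA. There were 3 groups of 4 animals: untreated wild-type mice, vehicle-dosed 5xFAD mice, and 5xFAD mice dosed with MS1262, a brain-penetrant inhibitor of the histone methyltransferase G9a per the series title, all age-matched. 5xFAD mice carry mutant human transgenes for familial Alzheimer's disease, driven by the Thy1 promoter, a model of amyloid deposition with gliosis. The wild-type animals received no vehicle, so in comparisons with them genotype and dosing cannot be told apart, and MS1262 was given to no wild-type animal. The labels used here give no age in numbers, dose, treatment time or batch.

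Chemokines are small secreted proteins that bind G protein-coupled receptors and draw leukocytes along a gradient. CC and CXC chemokines are named for the spacing of their first conserved cysteines. In brain, microglia are a main source of Ccl3, Ccl4 and Ccl6, whereas Ccl2, Ccl5 and Cxcl10 can be induced in glia by cytokines and interferons, Cxcl14 is made by neurons, and Cxcl16 is made as a membrane-bound protein that the protease Adam10 can release. Many chemokine promoters hold sites for NF-kB, AP-1 and interferon-responsive factors.

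Of the members, 7 lie on chromosome 11, Cxcl5 and Cxcl10 on chromosome 5 and Cxcl14 on chromosome 13, by RefSeq gene positions on GRCm38.p6. Ccl5, Ccl6, Ccl3 and Ccl4 lie within 138906 bases of chromosome 11 (83525778 to 83664683). Ccl2 and Ccl12, which are close paralogs and both ligands of Ccr2, lie within 67823 bases (82035577 to 82103399). The RefSeq models of Ccl3 (83647843 to 83649378) and Ccl4 (83648624 to 83664683) share 755 bases, and the library method does not mark strand, so that reads in the shared stretch could be divided between them. Promoters, here the 250 bases before a RefSeq start, were given for 5 of the 10 members. Those of 3 genes that were higher in vehicle-treated 5xFAD than in wild-type mice are shown beside that of Cxcl14, which passed the test in no comparison of expression, each written 5′ to 3′ on its gene's strand. Capitals mark the matches to the motifs named after them. The Cxcl14 window lies inside its gene (56288643 to 56296811), so the start it precedes is an inner one, not the outer end of the gene.
Ccl3, chr11:83649379-83649628, minus strand: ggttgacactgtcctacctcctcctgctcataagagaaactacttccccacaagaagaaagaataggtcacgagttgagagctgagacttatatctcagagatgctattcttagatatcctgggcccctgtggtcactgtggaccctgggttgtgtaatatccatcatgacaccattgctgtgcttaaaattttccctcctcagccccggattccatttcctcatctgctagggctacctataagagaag
Ccl6, chr11:83593088-83593337, minus strand: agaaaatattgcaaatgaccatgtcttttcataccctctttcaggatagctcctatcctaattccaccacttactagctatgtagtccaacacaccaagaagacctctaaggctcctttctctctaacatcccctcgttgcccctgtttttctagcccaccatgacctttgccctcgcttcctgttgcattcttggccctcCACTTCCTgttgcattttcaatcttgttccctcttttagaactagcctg
Cxcl10, chr5:92348890-92349139, minus strand: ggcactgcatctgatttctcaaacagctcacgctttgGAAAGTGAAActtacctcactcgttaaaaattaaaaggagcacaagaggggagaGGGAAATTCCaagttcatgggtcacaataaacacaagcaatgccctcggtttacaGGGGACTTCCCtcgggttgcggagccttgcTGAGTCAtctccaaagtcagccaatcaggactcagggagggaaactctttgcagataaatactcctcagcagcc
Cxcl14, chr13:56296552-56296801, minus strand: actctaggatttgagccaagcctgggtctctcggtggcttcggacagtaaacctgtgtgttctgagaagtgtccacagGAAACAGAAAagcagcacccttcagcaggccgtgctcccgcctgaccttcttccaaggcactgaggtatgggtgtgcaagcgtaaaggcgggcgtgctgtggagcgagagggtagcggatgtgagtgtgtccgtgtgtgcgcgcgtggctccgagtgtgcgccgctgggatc

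Motifs were searched on both strands: GGG and CC with any 5 bases between them for NF-kB, GAAA and GAAA with any 2 bases between them for the interferon-stimulated response element, TGANTCA for AP-1, AGGAAGTG for ETS factors such as PU.1, and TATAAA for the TATA box. The Cxcl10 promoter held 3 NF-kB matches, 2 of which overlap (159 to 150, 104 to 95 and 103 to 94 bases before the start), an interferon-response match at 213 to 204 and an AP-1 match at 74 to 68. These motifs occurred in 45.8%, 2.98% and 6.75% of the 32851 promoters of this length in the RefSeq table. Ccl6 held an ETS match 49 to 42 bases before its start, on the reverse strand, and Ccl12, whose promoter is not printed, held one at 229 to 222 as well as a TATA match at 31 to 26. The ETS motif occurred in 3.14% of all promoters, the TATA motif in 12.4%. Because the ETS motif was chosen after the Ccl6 promoter was read, its rate is no measure of how unusual that match is. Cxcl14 held an interferon-response match at 172 to 163, counted from its inner start, and the Ccl3 window held no match to any of the 5 motifs. A match is a description of the sequence and was not tested for binding.

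The input libraries held 20.7 to 43.2 M (mega) estimated counts and the IP libraries 3.98 to 48.6 M. Vehicle animal 3 stood apart. Its input library had 7045 CPM of Ttr, the main transcript of choroid plexus, against 30.3 to 748 in the other 11, and 1.29 CPM of Xist, the RNA of the inactive X chromosome, against 21.5 to 48.2, while neither its input nor its IP library held a count of the Y-linked genes looked at. Its Thy1 level, 273 CPM, lay between the wild-type animals (88.7 to 107) and the other 5xFAD animals (384 to 746). The IP library with 3.98 M counts was that of vehicle animal 4, and the next lowest held 10.6 M. Results on vehicle animals are therefore given also without these animals where that matters.

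Compared per transcript length, as TPM in the input libraries, Cxcl14 was the highest of the 10 in wild-type mice at 11.6 ± 0.612 (SD, n = 4), followed by Ccl6 at 8.49 ± 3.69 and Ccl12 at 4.97 ± 2.40. The ranges of Cxcl14 and Ccl6 overlapped, as did those of Ccl6 and Ccl12, whereas Ccl12 lay above Ccl4, the next in order, without overlap. The other 7 were below 1.4 TPM on average, and Ccl3 (0.212 ± 0.0946) and Cxcl10 (0.183 ± 0.0602) were lowest. In vehicle-treated 5xFAD mice Ccl6 led with 87.7 ± 67.7 TPM, or 70.9% of the summed TPM of the 10, and no animal overlapped the range of Cxcl14 (10.8 ± 2.40), which came next. Ccl3 followed at 8.20 ± 7.50 TPM. The order was similar with MS1262: Ccl6 at 94.6 ± 24.7 TPM made up 69.6% of the sum, followed by Cxcl14 at 12.9 ± 1.67 and Ccl3 at 8.57 ± 3.12, while Cxcl5, at 5.44 ± 2.08 TPM, came next to Ccl3 (2.03 ± 0.246 TPM with vehicle). Below Ccl6, neighbours in the order overlapped in both 5xFAD groups.

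**Figure D1:**
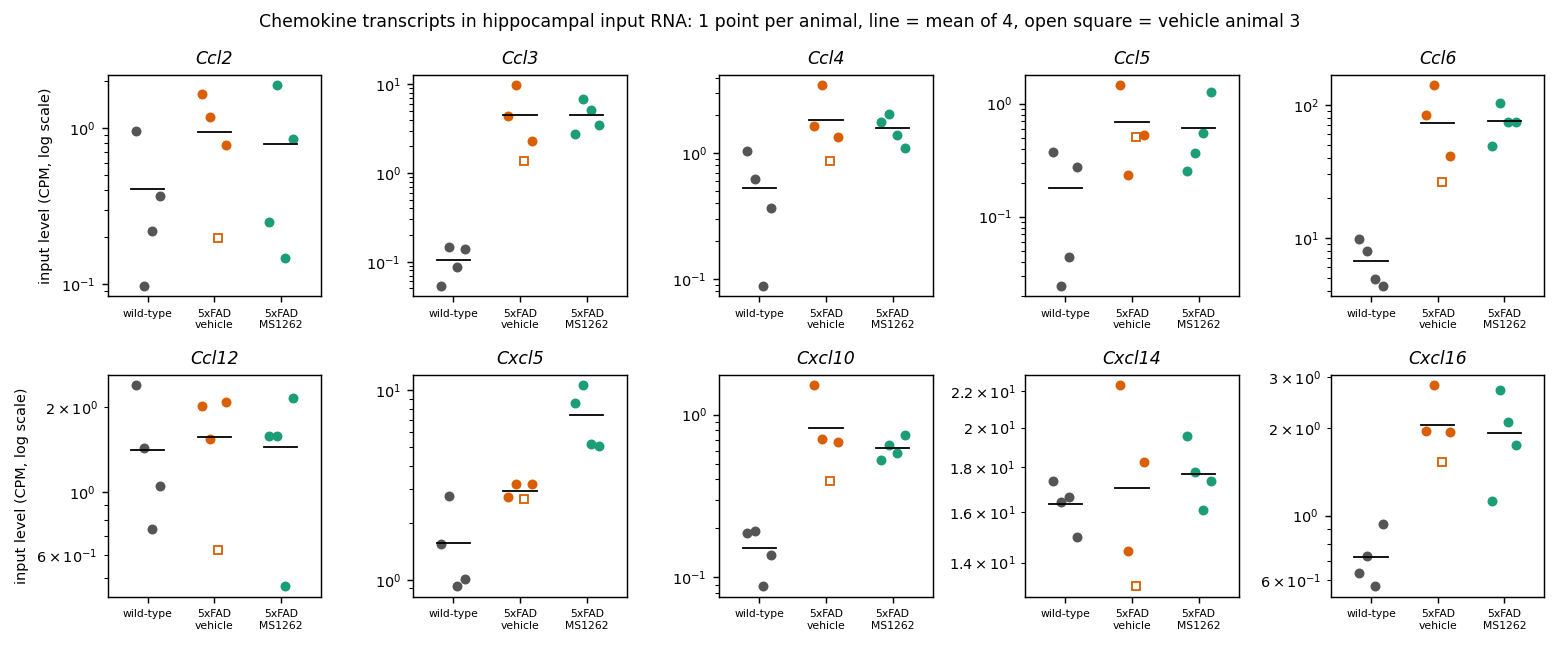
Input level of each chemokine gene (CPM, log axis; scales differ between genes) in each of the 4 animals of the wild-type, 5xFAD vehicle and 5xFAD MS1262 groups, with a line at each group mean and vehicle animal 3 as an open square. Ccl3 and Ccl6 of all 8 5xFAD animals lie above all 4 wild-type animals, and Cxcl5 of all 4 MS1262 animals lies above all others.

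The first question was how the transgenic model differed from wild-type. In vehicle-treated 5xFAD mice Ccl3, Ccl6, Cxcl10 and Cxcl16 rose and no chemokine gene fell, by edgeR's quasi-likelihood test with Benjamini-Hochberg adjustment over 17693 genes. That is 4 of 10, where 1.57% of all tested genes passed, 1.06% upward; at an unadjusted p below 0.05 there were 7 of 10, where 12.8% of all genes passed. The groups did not overlap for the same 4 genes, whereas 4.08% of all genes were higher without overlap. The median log2 difference was 1.62 over the 10 and 0.01 over all tested genes. The 10 were chosen with earlier results of these data known, so these shares do not stand for chemokine genes in general. Ccl3 and Cxcl10 held 2 to 6 and 2 to 8 counts in the wild-type input libraries, under the low-count filter's minimum of 10. They were tested only because of their counts in 5xFAD animals. Both could therefore hardly have been called lower, and the 4 of 10 include them. Among 13 other chemokines tested none passed, and their median log2 difference was 0.21. All 10 had a positive sign, but 6 did not pass, of which Ccl4, Ccl5 and Cxcl5 had 95% intervals above 0 before adjustment over all genes (0.57 to 2.93, 0.17 to 3.63 and 0.17 to 1.63).

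Ccl3 and Ccl6 are ligands of Ccr1. Ccl3 was at 0.0531, 0.145, 0.0878 and 0.137 CPM in the wild-type animals, from 2 to 6 counts in each, and at 4.34, 9.89, 1.37 and 2.31 CPM in the vehicle animals. The lowest vehicle animal, number 3, was still far above the highest wild-type animal. The log2 difference was 5.31 ± 0.65 (SE; adjusted p = 0.000873, edgeR), with an imprecise base because so few wild-type reads were counted.

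Ccl6, a mouse CC chemokine of macrophages, had enough reads for a firmer value: 112 to 366 counts in wild-type and 665 to 3366 in vehicle animals. Its levels were 9.72, 8.01, 4.92 and 4.33 CPM in wild-type mice and 84.0, 142, 26.1 and 40.9 CPM in vehicle-treated 5xFAD mice. The groups were widely separated, and the vehicle animals differed among themselves by several fold, animal 3 again the lowest. Ccl6 was 10.8-fold higher (log2 3.43 ± 0.46 SE; adjusted p = 0.00182, edgeR). Without vehicle animal 3 the log2 differences were 5.59 for Ccl3 and 3.70 for Ccl6.

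Ccl4, a chemokine of activated microglia and macrophages, and Ccl5 did not pass. Ccl4 was at 1.04, 0.629, 0.0878 and 0.367 CPM in wild-type and 1.65, 3.52, 0.863 and 1.35 CPM in vehicle animals, and the groups overlapped only through wild-type animal 1 and vehicle animal 3. The log2 difference was 1.75 ± 0.55 (SE; adjusted p = 0.163, edgeR). It passed in DESeq2 (adjusted p = 0.0343). Ccl5, a chemokine of T cells and of interferon responses, was at 0.0242 to 0.372 CPM (median 0.159) in wild-type and 0.234 to 1.47 CPM (median 0.519) in vehicle animals, a log2 difference of 1.90 ± 0.81 (SE; adjusted p = 0.338, edgeR) in which both groups were wide.

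Ccl2 and Ccl12 attract monocytes through Ccr2. Ccl2 spanned 0.0968 to 0.956 CPM in wild-type and 0.196 to 1.65 CPM in vehicle animals. It varied about as much within groups as between them, and its log2 difference of 1.20 had a standard error of 0.84 (adjusted p = 0.604, edgeR). Ccl12 was at 2.39, 1.43, 0.746 and 1.05 CPM in wild-type and 2.02, 1.55, 0.628 and 2.08 CPM in vehicle animals, so that the groups covered nearly the same range. The log2 difference was 0.16, with a 95% interval from -0.87 to 1.19. Since the transcripts of these paralogs are similar in sequence, the authors' counting could have divided reads between them.

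Among the CXC members, Cxcl10 and Cxcl16 rose. Cxcl10, an interferon-induced ligand of Cxcr3, was at 0.186, 0.194, 0.0878 and 0.137 CPM in wild-type animals, from 2 to 8 counts, and at 1.52, 0.703, 0.392 and 0.677 CPM in vehicle animals, from 10 to 61 counts. Every vehicle animal lay above every wild-type animal. The log2 difference was 2.40 ± 0.52 (SE; adjusted p = 0.0364, edgeR). Cxcl16, the ligand of Cxcr6, was at 0.637, 0.726, 0.571 and 0.939 CPM in wild-type and 1.95, 2.81, 1.53 and 1.93 CPM in vehicle animals, again without overlap. It was 2.82-fold higher (log2 1.50 ± 0.33 SE; adjusted p = 0.0379, edgeR).

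Both of these calls lay close to the threshold. Cxcl10 passed in 4 of 18 alternative settings and Cxcl16 in 6 of 20, and leaving out any 1 of the 4 wild-type animals, vehicle animal 1, 2 or 4, or MS1262 animal 3 or 4, which share the estimate of the spread, ended both calls; without MS1262 animal 2 only that of Cxcl10 was lost. Neither rested on vehicle animal 3: without it the adjusted p was 0.0202 for Cxcl10 and 0.0320 for Cxcl16. By contrast Ccl3 and Ccl6 passed in all 20 alternatives run, although the size for Ccl3 depended on the scale: its log2 difference ran from 2.6 on log2(TPM + 1), a scale that understates the change of low genes, to 5.59.

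Cxcl5, a ligand of Cxcr2 known for drawing neutrophils, was at 1.54, 2.78, 0.922 and 1.01 CPM in wild-type and 2.72, 3.19, 2.67 and 3.21 CPM in vehicle animals. The vehicle animals were close together, and wild-type animal 2 lay within their range. The log2 difference was 0.90 ± 0.34 (SE; adjusted p = 0.267, edgeR). Cxcl14 was at 17.4, 16.4, 16.6 and 15 CPM in wild-type and 22.4, 14.4, 13.1 and 18.3 CPM in vehicle animals, so that the wild-type animals lay inside the range of the vehicle animals. With a difference of 0.06 and a 95% interval from -0.26 to 0.39 on the log2 scale, it was measured more closely than any other member.

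**Figure D2:**
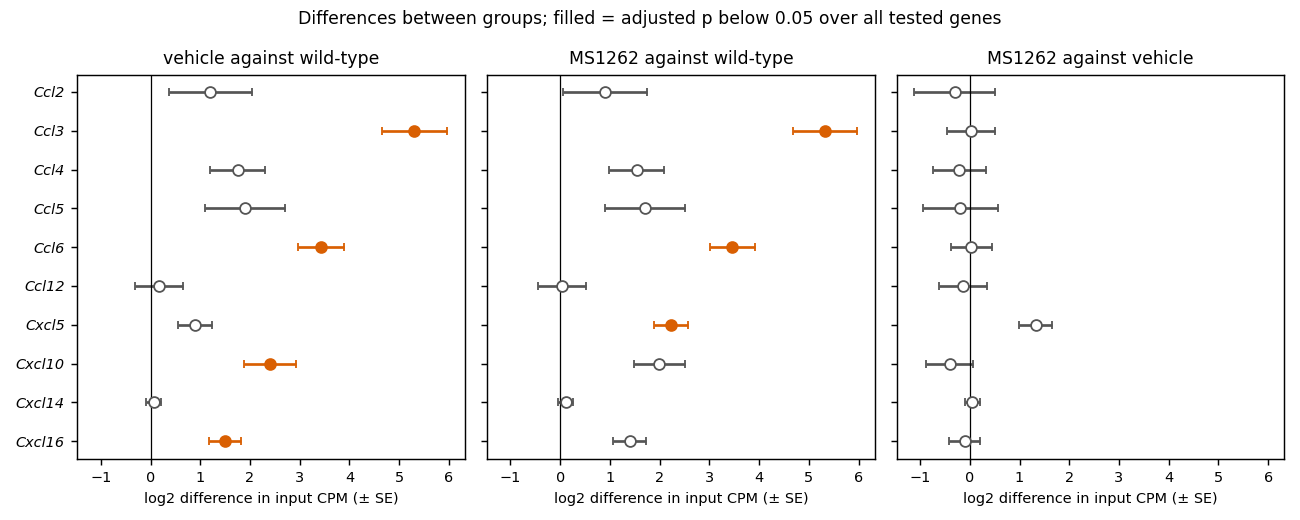
Log2 difference in input CPM (horizontal axis, ± SE) of each chemokine gene in vehicle against wild-type, MS1262 against wild-type and MS1262 against vehicle, with filled points at adjusted p below 0.05 (edgeR). Ccl3 and Ccl6 stand far to the right in both comparisons with wild-type, and in MS1262 against vehicle Cxcl5, at 1.32, is the point furthest from 0.

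MS1262-treated 5xFAD mice were compared with the same wild-type animals, which both comparisons share. Ccl3, Ccl6 and Cxcl5 rose and none fell, 3 of 10 where 1.30% of all tested genes passed and 0.910% passed upward. At an unadjusted p below 0.05 there were 6 of 10, where 14.3% of all genes passed. The median log2 difference was 1.63, against 0.00 over all genes. The limits set by the choice of the 10 and by how Ccl3 and Cxcl10 passed the filter hold here too. Groups did not overlap for 6 members, the 3 named and Ccl4, Cxcl10 and Cxcl16, all higher, where 5.23% of all genes were higher without overlap.

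Ccl3 was at 2.76, 6.76, 5.16 and 3.43 CPM with MS1262 and Ccl6 at 48.6, 102, 74.2 and 74.6 CPM. All of these values fell within the range of the vehicle animals, and the MS1262 animals were less widely scattered. Against wild-type the log2 difference was 5.33 ± 0.64 (SE; adjusted p = 0.000822, edgeR) for Ccl3 and 3.46 ± 0.46 (SE; adjusted p = 0.00157, edgeR) for Ccl6. For Cxcl10, at 0.525, 0.648, 0.583 and 0.748 CPM, the log2 difference of 2.00 ± 0.52 (SE) had an adjusted p of 0.0812, and for Cxcl16, at 1.12, 2.71, 2.1 and 1.75 CPM, that of 1.4 ± 0.33 had an adjusted p of 0.0538 (edgeR). Both missed the threshold here and passed it in DESeq2, with adjusted p of 0.0293 and 0.00823. Ccl4 at 1.78, 2.06, 1.4 and 1.11 CPM differed from wild-type by 1.54 (adjusted p = 0.208, edgeR).

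The study's treatment question is the comparison of MS1262 with vehicle in 5xFAD mice. None of the 10 chemokine genes passed in edgeR's quasi-likelihood test, nor did any of the 17693 genes tested, so that the background was 0%. DESeq2 called 11 of all genes and none of the 10. At an unadjusted p below 0.05 there were 1003 genes, 5.67% of those tested, and among the 10 only Cxcl5. The median log2 difference was -0.12 over the 10 and -0.01 over all genes, with 4 positive and 6 negative signs.

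Cxcl5 was at 8.59, 10.7, 5.22 and 5.08 CPM with MS1262, against 2.67 to 3.21 CPM with vehicle. The lowest MS1262 animal was above the highest animal of either other group, in the CPM and in the TPM values. Groups without overlap, higher with MS1262, were found for 1.55% of all tested genes. The log2 difference from vehicle was 1.32 ± 0.33 (SE; 95% interval 0.61 to 2.04), a 2.50-fold difference with an unadjusted p of 0.00131 and an adjusted p of 0.848 (edgeR). Over 20 alternatives the log2 difference stayed between 1.03 and 1.48 and its adjusted p between 0.0837 and 0.990. From wild-type it differed by 2.22 ± 0.34 (SE; adjusted p = 0.00483, edgeR), and this call held in all 20 alternatives.

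For the other members the 95% intervals give the treatment differences compatible with the data, before adjustment over all genes. Their spread was estimated from all 12 input libraries, wild-type included. That of Cxcl14 ran from -0.28 to 0.38 on the log2 scale and that of Cxcl16 from -0.77 to 0.57. Ccl6 (0.03, from -0.84 to 0.91), Ccl3 (0.02, from -1.0 to 1.04) and Cxcl10 (-0.41, from -1.42 to 0.61) had wider intervals, and without vehicle animal 3 the differences of Ccl3 and Ccl6 were -0.27 and -0.24. For Ccl2 the interval was widest, from -2.04 to 1.44. A missed threshold does not show that vehicle and MS1262 animals were alike.

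**Figure D3:**
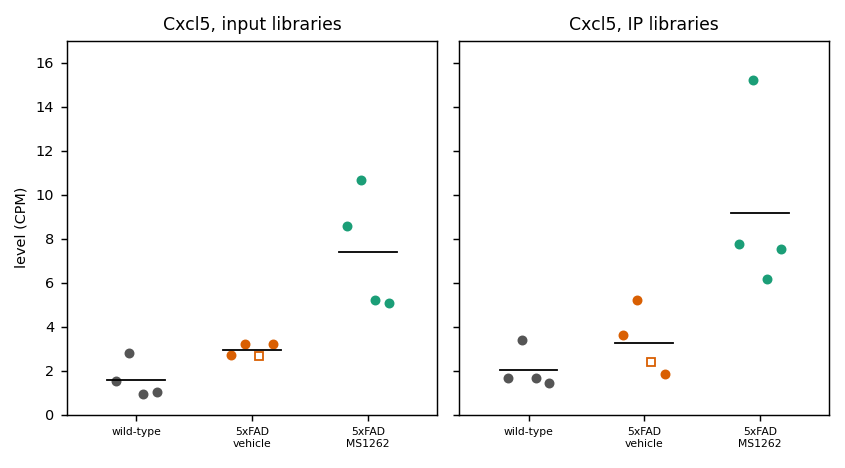
Cxcl5 level (CPM, linear axis from 0, scaled within the input and within the IP libraries) in each animal of the 3 groups, with a line at each mean and vehicle animal 3 as an open square. In the input libraries the MS1262 animals sit between 5.08 and 10.7 CPM and in the IP libraries between 6.18 and 15.2 CPM, above every animal of the other groups.

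The IP libraries are a separate set of libraries from the same animals, and were tested alone after the input results were known. Ccl3 and Ccl6 passed in vehicle against wild-type, at log2 differences of 3.74 ± 0.48 (SE; adjusted p = 0.00262) and 3.29 ± 0.52 (adjusted p = 0.0100, edgeR), 2 of 10 where 0.537% of all genes passed and 0.431% passed upward. The call of Ccl6 was lost without wild-type animal 4 (adjusted p = 0.0576). Ccl3, Ccl6 and Cxcl5 passed in MS1262 against wild-type, 3 of 10 where 0.673% passed, 0.555% upward. Cxcl5 in IP libraries was at 1.64, 3.38, 1.65 and 1.44 CPM in wild-type, 3.62, 5.20, 2.37 and 1.86 CPM in vehicle and 7.78, 15.2, 6.18 and 7.53 CPM in MS1262 animals. MS1262 animals again lay above all others. The log2 difference was 2.13 ± 0.39 from wild-type (SE; adjusted p = 0.0229, edgeR), a call lost without wild-type animal 1, 3 or 4 or MS1262 animal 2 (adjusted p up to 0.0933), and 1.44 ± 0.38 from vehicle (adjusted p = 0.995, edgeR), where no gene passed and 1.33% of all genes were higher with MS1262 without overlap.

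IP over input, the log2 ratio of scaled IP to scaled input counts in the same animal, was then used to ask how strongly each message was taken up by the m6A antibody relative to other messages. The ratio is one of counts per gene, not per site, and it does not measure total m6A. The protocol names no fragmentation of the RNA, so whether whole transcripts were pulled down is not known. No chemokine gene was above 0 by edgeR's test in any group, and those that passed were below 0. This direction depended on the scale. In some settings of limma on TPM values, where the median of all genes lay above 0, Ccl3 and Cxcl5 passed above 0 in wild-type. So did Ccl4 with vehicle, Ccl4 and Cxcl5 with MS1262, and Cxcl14 in every group. In wild-type mice Ccl12 (-2.16 ± 0.43 SE; adjusted p = 0.000847), Ccl4 (-1.62 ± 0.42; adjusted p = 0.00624) and Ccl6 (-0.70 ± 0.16; adjusted p = 0.00232, edgeR) were lower in IP than in input, 3 of 10 where 33.0% of all genes passed and 16.2% were lower. A share of this kind is not set apart from the background. Ccl6 also passed with vehicle (-0.93 ± 0.13; adjusted p = 4.56e-05) and with MS1262 (-0.54 ± 0.13; adjusted p = 0.00312, edgeR), 1 of 10 each, where 39.7% and 38.1% of all genes passed and 20.6% and 17.6% were lower.

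Ccl6 was low in every animal: -0.70, -0.67, -0.83 and -0.59 in wild-type, -0.78, -0.75, -0.68 and -1.73 with vehicle and -0.21, -0.67, -0.62 and -0.65 with MS1262. All 12 values were negative, and the one far from the rest came from vehicle animal 4, whose IP library had 63 Ccl6 counts. Without that animal the vehicle value was -0.74. With limma on TPM values, all genes together had median IP over input log2 ratios of 0.41 to 0.64 within the groups, against -0.03 to 0.02 on the main scale, and there Ccl6 was at -0.17 in wild-type, -0.36 with vehicle and 0.02 with MS1262 (log2(TPM + 1)), none past the threshold. The calls of Ccl6 were also lost in all 3 groups when the animal block was left out. Ccl4 in wild-type mice was at -0.78, -2.25, -0.68 and -1.26, where its IP libraries held 11, 7, 0 and 3 counts. It stayed negative on the TPM scale, and its call was lost without wild-type animal 2 (adjusted p = 0.0739) and without the animal block (adjusted p = 0.145). Ccl12 was at -2.09, -1.70, -3.27 and -1.72 in wild-type mice, where its IP libraries held 10, 25, 0 and 7 counts, and passed in all 18 alternatives.

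Cxcl14 was taken up about as much as the median transcript: 0.16, 0.12, 0.28 and 0.27 in wild-type, -0.12, 0.11, 0.19 and 0.27 with vehicle and 0.04, -0.03, 0.21 and -0.06 with MS1262. The 3 group estimates, 0.20, 0.10 and 0.04, did not pass; on the TPM scale, where the median of all genes lay higher, Cxcl14 passed in all 3 groups. Cxcl5 was also near 0, from -0.90 in vehicle animal 4 to 0.61 in wild-type animal 3. Ccl2, Ccl5, Cxcl10 and Cxcl16 scattered over 2 log2 units or more within at least 1 group, and those of the first 3 rested on IP counts down to 0, so that these ratios could not be read closely at this depth.

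Between groups no chemokine gene passed for IP over input in any of the 3 comparisons by edgeR's quasi-likelihood test, and none did in DESeq2. Among all 18300 tested genes 0.989% passed in vehicle against wild-type, 0% in MS1262 against vehicle and 1.24% in MS1262 against wild-type. At an unadjusted p below 0.05 there were 2, 0 and 3 of the 10, where 11.7%, 2.37% and 11.1% of all genes passed. Ccl3 was positive in all wild-type animals (2.18, 0.40, 0.32 and 0.35) and lay lower, without overlap, with vehicle (-0.63, -1.16, -0.33 and 0.10) and with MS1262 (-0.04, -0.44, -0.74 and -0.23). The wild-type ratios rest on 2 to 6 input and 1 to 12 IP counts. The log2 differences from wild-type were -1.41 ± 0.52 (SE; adjusted p = 0.283) and -1.17 ± 0.51 (adjusted p = 0.395, edgeR). For Ccl4 the difference from wild-type was 1.32 ± 0.52 with vehicle (adjusted p = 0.326), without overlap, and 1.44 ± 0.51 with MS1262 (adjusted p = 0.248, edgeR), with overlap through MS1262 animal 3. The wild-type Ccl4 ratios rest on 0 to 11 IP counts, and the highest of them, that of animal 3, on 0 IP and 2 input counts. Ccl12 differed by 1.38 ± 0.57 between MS1262 and wild-type (adjusted p = 0.344, edgeR), without overlap. Groups without overlap were found for 7.45% of all genes with vehicle and 10.5% with MS1262, and counts of 2 of 10 in each comparison are read against that. In MS1262 against vehicle Ccl6 did not overlap, 1 of 10 where 2.21% of all genes did not, at a difference of 0.39 ± 0.19 (SE; unadjusted p just above 0.05, adjusted p = 1, edgeR). Without vehicle animal 4 this difference was 0.20, and without MS1262 animal 1 it was 0.26.

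**Figure D4:**
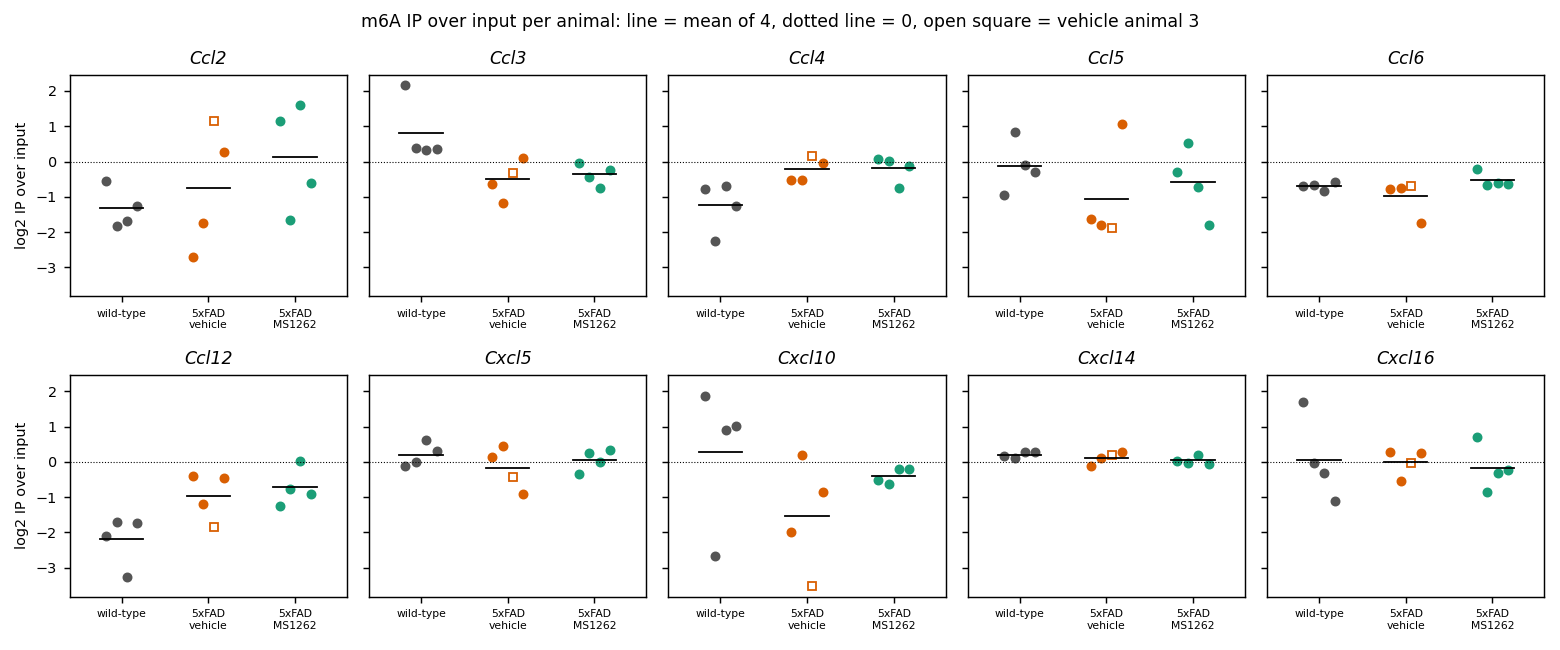
Log2 IP over input (vertical axis) of each chemokine gene in each animal of the 3 groups, with a line at each group mean, a dotted line at 0 and vehicle animal 3 as an open square. Ccl6 lies below 0 in all 12 animals and Cxcl14 close to 0, whereas Ccl2, Ccl5 and Cxcl10 spread widely within groups.

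The authors' deposited peak lists, called for each animal on its IP against its input, held 3534 to 6591 peak regions. Of the 10 genes, 8 had no peak in any animal. Cxcl14 had peaks in 3 of 12 animals, 1 per group: in wild-type animal 2 at chr13:56288941-56289163 (1.48-fold over background, q = 0.000834) and chr13:56289527-56289800 (1.34-fold, q = 0.0747), in vehicle animal 3 at chr13:56289455-56289681 (2.19-fold, q = 6.18e-09) and in MS1262 animal 2 at chr13:56289441-56289802 (1.51-fold, q = 0.0978), as the authors' deposited table gives them on mm10. The peaks lie near the low-coordinate end of the gene (56288643 to 56296811, minus strand), which is its 3′ end, and 3 of the 4 overlap each other. With no fragmentation named, these positions may not locate m6A. Cxcl5 had 1 peak, in MS1262 animal 2 at chr5:90760490-90760737 (2.13-fold, q = 3.16e-05 in the authors' deposited table), which is the IP library with the most Cxcl5 counts (459). Since a peak needs reads, its absence in genes with few counts says nothing on their m6A. That limit does not cover Ccl6 in MS1262 animals, which had no peak at 1319 to 2415 IP counts.

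Receptors and regulators were read from lists of their own. Of 23 chemokine receptor genes 12 had enough counts to test. Cx3cr1, the microglial receptor of Cx3cl1, rose 2.01-fold in vehicle-treated 5xFAD mice (15.7 ± 1.44 CPM in wild-type and 31.5 ± 8.34 with vehicle, SD, n = 4; adjusted p = 0.00777) and 1.94-fold with MS1262 (30.4 ± 2.41 CPM; adjusted p = 0.0112, edgeR). It was the only receptor that passed in either comparison, and none fell; the list's median log2 differences were 0.49 and 0.25. Of the receptors that bind members that rose, these did not pass: Ccr1 was at 0.535 ± 0.177, 1.1 ± 0.740 and 0.641 ± 0.141 CPM in wild-type, vehicle and MS1262 animals, and Cxcr6 at 0.0409 ± 0.0414, 0.589 ± 0.493 and 0.580 ± 0.721 CPM.

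Of 19 genes for upstream cytokines, transcription factors and the shedding proteases 15 were tested. Nfkb2, a subunit of NF-kB, fell in vehicle-treated 5xFAD mice, from 32.6 ± 5.67 to 19.8 ± 1.76 CPM (SD, n = 4; log2 difference -0.72, adjusted p = 0.0379), and was at 22.0 ± 4.32 CPM with MS1262 (adjusted p = 0.104, edgeR). Il1a, a cytokine of activated microglia, rose 2.47-fold with MS1262 over wild-type, from 0.843 ± 0.171 to 2.07 ± 0.521 CPM (adjusted p = 0.0461), and was at 1.87 ± 0.451 CPM with vehicle (adjusted p = 0.0816, edgeR). The list's median log2 difference was 0.14 in both. Adam10 (102 to 106 CPM on average in the 3 groups) and Adam17 (6.80 to 8.17) did not pass. Ifng and Ifnb1 had no count in any input library, and Tnf had none in wild-type.

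The other chemokines numbered 27, of which 13 were tested, and none passed in any comparison. Their median log2 differences were 0.21 for vehicle against wild-type, -0.30 for MS1262 against vehicle and 0.06 for MS1262 against wild-type. The most abundant of them, on the CPM scale, were Ccl27a (55.5 ± 11.1, 45.7 ± 14.2 and 41.2 ± 8.82 in wild-type, vehicle and MS1262 animals), Cx3cl1 (31.8 ± 3.66, 27.1 ± 2.64 and 33.3 ± 6.14) and Ccl25 (22.2 ± 1.17, 14.3 ± 3.41 and 16.1 ± 3.49). In MS1262 against vehicle no gene of these 3 lists passed.

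Since these are bulk libraries, more cells of a type and more RNA per cell cannot be told apart. The summed level of 12 microglial markers was 382 to 421 CPM in wild-type, 408 to 846 with vehicle and 549 to 709 with MS1262, so that vehicle animal 3, at 408, lay within the wild-type range and the other 7 5xFAD animals above it. Of the 12, 3 passed in each comparison with wild-type, all higher and with Tmem119 and Fcrls among them in both, with median log2 differences of 0.84 and 0.81 over the list. P2ry12, the most abundant of them, did not pass (1.21-fold with vehicle, adjusted p = 0.354, edgeR). Per 1000 CPM of these markers, Ccl6 was at 16.6 ± 5.64 CPM in wild-type, 103 ± 53.1 with vehicle and 115 ± 23.2 with MS1262 (SD, n = 4), and Ccl3 at 0.265 ± 0.112, 6.18 ± 3.99 and 6.88 ± 2.07. The ranges of both 5xFAD groups remained above that of wild-type on this scale. Cxcl14 was at 40.7 ± 1.35, 26.9 ± 7.62 and 27.9 ± 5.40 per 1000. The part of the microglial level in the chemokine differences was not tested.

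Markers of other leukocytes had lower sums. Of 8 perivascular macrophage genes, F13a1 rose in vehicle against wild-type (3.07 ± 0.410 to 7.65 ± 3.36 CPM; adjusted p = 0.0479, edgeR) and none passed in the others; their sum was 9.34 to 20.1 CPM in wild-type, 12.9 to 36.0 with vehicle and 13.8 to 16.8 with MS1262. The sum of 6 monocyte genes was 14.1 to 25.9, 16.6 to 31.2 and 16.2 to 28.4 CPM and that of 10 T and NK cell genes 5.60 to 18.6, 5.16 to 17.9 and 3.47 to 11 CPM, with none called. Neutrophil genes summed to at most 1.71 CPM in any animal, and Ly6g, which defines them, was at 0 in all 12 input libraries. Vehicle animal 3, with the most Ttr, had the lowest level of its group for 9 of the 10 chemokine genes, all but Ccl5.

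Astrocytes and neurons, which can also make some of these chemokines, were read from lists of their own. The sum of 8 astrocyte genes was 6606 to 8549 CPM in wild-type, 6669 to 10294 with vehicle and 7844 to 8622 with MS1262. Gfap, the filament protein of reactive astrocytes, rose from 77.4 ± 35.1 to 223 ± 116 CPM with vehicle (SD, n = 4; adjusted p = 0.0449) and was at 214 ± 52.8 CPM with MS1262 (adjusted p = 0.0582, edgeR), and no other gene of the list passed. The sum of 10 interneuron genes was 875 to 965, 817 to 914 and 776 to 915 CPM. Of these Sst, the peptide somatostatin, fell from 137 ± 34.1 to 77.9 ± 16.3 CPM with vehicle (adjusted p = 0.0306) and to 63.5 ± 6.04 CPM with MS1262 (adjusted p = 0.00480, edgeR). No gene passed among 5 pyramidal neuron genes (1236 to 1876, 1233 to 1610 and 1409 to 1753 CPM), 6 endothelial genes (19.5 to 41.6, 27.7 to 39.4 and 20.3 to 25.7 CPM) or 7 genes of meninges and fibroblasts (106 to 181, 94.8 to 232 and 56.4 to 179 CPM). None passed among 6 tested of 7 choroid plexus genes (the 7 summed to 56.2 to 793, 71.4 to 7375 and 41.6 to 185 CPM, with the highest value in vehicle animal 3) or 5 genes of red blood cells (33.6 to 102, 60.4 to 112 and 24.4 to 66.1 CPM). In MS1262 against vehicle no gene of any of these lists passed. Their part in the chemokine differences was not tested.

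Across the 12 input libraries, which include the group difference, the tested genes with levels most like each member by Pearson correlation of log2 CPM among 14245 genes were these. Ccl3 was most like Cst7 (r = 0.991), a cystatin of activated microglia, Cd200r4 (0.986) and Thy1 (0.985), whose promoter drives the transgenes. Ccl6 was most like Cd68 (0.984), Cd52 (0.984) and Cd14 (0.983), genes of phagocytes and leukocytes. Cxcl16 was most like Pros1 (0.954), Cd9 (0.948) and Ccl3 (0.947). Ccl4 was most like Slc14a1 (0.980), Tifab (0.964) and Scamp2 (0.952). Cxcl5 was most like Nedd4l (0.921), Bcl2l15 (0.877) and Aldh1l2 (0.876), Cxcl14 like Ptprt (0.870), Dmp1 (0.869) and Gpr26 (0.851), and Ccl12 like Arhgap33 (0.870), Golga7b (0.861) and Cox15 (0.838). Within the 8 5xFAD libraries alone, Ccl3 and Ccl6 kept r = 0.977 and Ccl3 and Ccl4 0.848, while Ccl3 and Cxcl5 were at 0.269. All of these libraries share the scaling by depth, and the values are descriptions without a test.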

How the data were processed

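The authors deposited estimated counts per gene for each library; Salmon 1.4.0 is listed for them among the submitters' processing notes, which also hold MACS2 2.1.2, STAR 2.7.6a and the builds GRCm38 and mm10. Of these values 8.62% were not whole, and all were rounded before testing. TPM values, which take gene length into account, were deposited by the authors as well and used for levels between genes. Per the file headers, peaks were called per animal with MACS2 on read 1 of the IP against the input; fold enrichment ratios and −log10 q values are the authors' and were only described. Per the labels, 10% of 150 ng mRNA was input, and libraries were made by SMART-seq; no molecular identifiers are named, and reads are not separate molecules.

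The 12 input libraries were tested in R 4.3.3 by the quasi-likelihood method of edgeR 4.0.16 (TMM, low-count filter with a minimum of 10, Benjamini-Hochberg over all genes, adjusted p below 0.05, 2-sided). IP over input was tested on all 24 libraries with the animal as a block and IP by group; ratios per animal had 1 count added to the IP and to the input count. CPM were scaled by TMM within the input and within the IP libraries. The fits were run on simulated counts with 200 changed genes, all above 1 CPM on average, at a fixed spread. That does not show how they perform on members at lower levels or with a wider spread. Alternatives were DESeq2 1.42.0, limma 3.58.1 on log2 TPM, no filter, fits with and without blocks, only the groups compared, and each animal left out; the IP libraries alone were added after the data were seen. Input and IP of an animal correlated best with each other in 12 of 12 pairs. The members, lists, motifs and tests were chosen with earlier results of these data known, and the ETS motif after the Ccl6 promoter was read. Named were all 10 members, list members that passed (at most 6 per list and comparison), those a result turned on, and the 3 most like genes of members at 1 CPM or more. The labels name no litters or batches. Gene positions and promoters are RefSeq's on GRCm38.p6. Some single genes of the lists are counted but not named here.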

Additional observations from a re-analysis of the deposited data

Results flagged for a closer look

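Of 96 groups of 4 animals examined for a value far from the other 3, 9 had one. The rule flags about 1 in 20 groups of independent, normally spread values. Low counts and ratios made from the same counts do not meet that. Ttr and Xist, in which vehicle animal 3 stood apart, were also among the groups, so the 9 are not set against a chance rate. Ttr accounted for 3, animal 3 of each group: 748 CPM in wild-type, 7045 with vehicle and 159 with MS1262, with the other animals at 30.3 to 69.8 CPM. For IP over input these were Ccl3 in wild-type animal 1 (2.18, others 0.32 to 0.40), Ccl5 and Ccl6 in vehicle animal 4 (1.07, others -1.88 to -1.61, and -1.73, others -0.78 to -0.68), the animal with the shallowest IP library, and Ccl6 in MS1262 animal 1 (-0.21, others -0.67 to -0.62). In IP libraries Ccl4 of vehicle animal 2 (2.91 CPM, others 1.16 to 1.4) and Cxcl5 of wild-type animal 2 (3.38 CPM, others 1.44 to 1.65) stood out.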

How the results depend on the processing

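The count of chemokine genes called in vehicle against wild-type, 4, was 5 with DESeq2 and 2 to 4 with an animal left out. It was 2 with the replicate block, with only the 2 groups compared and with limma on log2(TPM + 1), log2(TPM + 0.1) and log2(TPM + 1) without a filter. In MS1262 against wild-type, 3, it was 5 with DESeq2 and 3 to 4 with an animal left out. In IP libraries alone it was 1 to 4 and 2 to 4 with an animal left out. Within groups, IP over input gave 1, 0 and 0 without the animal block (3, 1 and 1 with it), 5 in wild-type and 2 with MS1262 at log2(TPM + 0.1), 2 with vehicle and 3 with MS1262 at log2(TPM + 1), and 2 to 3 in wild-type and 1 to 2 with vehicle with an animal left out. The calls gained on the TPM scale were above 0. The replicate block gave adjusted p of 0.0883 for Cxcl10 and 0.0650 for Cxcl16 in vehicle against wild-type (edgeR). Deviations of animals with the same number correlated at -0.091 to 0.051 between groups, yet Ttr was far highest in animal 3 of every group. Whether the numbers pair animals is therefore not settled. Over all genes, calls ranged from 108 to 607 in vehicle against wild-type, 0 to 11 in MS1262 against vehicle and 73 to 631 in MS1262 against wild-type for expression, and from 0 to 489, 0 to 42 and 0 to 858 for IP over input. The TPM scale moved the median log2 difference of all genes to -0.14 and -0.16 in expression of vehicle against wild-type, and in IP over input within groups to 0.41 to 0.64. Peaks were found in 3 animals under all 3 peak settings. Cxcl10 had no value in 2 of the limma settings, where its TPM fell below the filter. Low counts of Ccl2, Ccl5 and Cxcl10 limit what could be detected.

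Of 120 log2 differences of single genes, 86 passed in no setting, and 38 of those changed sign in at least 1; the cause was not tested. The log2 differences that turned sign with the replicate block were, for expression, MS1262 against vehicle, Ccl5 0.032. Expression, MS1262 against wild-type had Ccl12 -0.025. The log2 differences that turned sign with limma on log2(TPM + 1) (expression the same without a filter) were, for expression, vehicle against wild-type, Cxcl14 -0.11. Expression, MS1262 against vehicle had Ccl4 0.0098, Cxcl16 0.076. Expression, MS1262 against wild-type had Ccl12 -0.035. IP over input, vehicle against wild-type had Cxcl14 0.028, Cxcl16 0.36. IP over input, MS1262 against vehicle had Ccl4 -0.0014. IP over input, MS1262 against wild-type had Ccl5 0.040, Cxcl5 0.18. IP over input within vehicle had Ccl3 0.14, Ccl4 0.34, Cxcl5 0.37, Cxcl16 0.55. IP over input within MS1262 had Ccl3 0.21, Ccl4 0.34, Ccl6 0.024, Cxcl10 0.030, Cxcl16 0.18. The log2 differences that turned sign with limma on log2(TPM + 0.1) were, for expression, vehicle against wild-type, Ccl12 -0.00081, Cxcl14 -0.12. Expression, MS1262 against vehicle had Ccl4 0.039, Cxcl16 0.10. Expression, MS1262 against wild-type had Ccl12 -0.069. IP over input, vehicle against wild-type had Cxcl14 0.034, Cxcl16 0.54. IP over input, MS1262 against vehicle had Ccl4 -0.031. IP over input, MS1262 against wild-type had Ccl5 0.17, Cxcl16 0.047. IP over input within vehicle had Ccl3 0.18, Ccl4 0.44, Cxcl5 0.48, Cxcl16 0.80. IP over input within MS1262 had Ccl3 0.24, Ccl4 0.41, Ccl5 0.018, Ccl6 0.025, Cxcl10 0.047, Cxcl16 0.31. The log2 differences that turned sign without the animal block were, for IP over input, vehicle against wild-type, Ccl2 -0.035. IP over input, MS1262 against vehicle had Ccl12 -0.023. IP over input within MS1262 had Ccl2 -0.48. With an animal left out, the log2 differences that turned sign had these ranges. Expression in vehicle against wild-type gave Ccl12 -0.039 to 0.53, Cxcl14 -0.10 to 0.16. MS1262 against wild-type gave Ccl12 -0.22 to 0.41. MS1262 against vehicle gave Ccl2 -1.18 to 0.12, Ccl5 -0.82 to 0.51, Ccl12 -0.38 to 0.17, Cxcl10 -0.63 to 0.081, Ccl4 -0.43 to 0.30, Cxcl14 -0.050 to 0.21, Cxcl16 -0.30 to 0.094, Ccl3 -0.27 to 0.75, Ccl6 -0.24 to 0.58. IP libraries in vehicle against wild-type gave Cxcl10 -0.46 to 1.38, Cxcl14 -0.12 to 0.053. MS1262 against vehicle gave Ccl12 -0.56 to 0.34, Cxcl14 -0.10 to 0.064, Ccl4 -0.24 to 0.41, Ccl5 -0.30 to 0.65, Cxcl10 -0.055 to 1.24. IP over input in vehicle against wild-type gave Cxcl16 -0.59 to 0.48, Ccl2 -0.20 to 1.27. MS1262 against wild-type gave Cxcl16 -0.72 to 0.35, Ccl5 -0.60 to 0.31, Cxcl5 -0.17 to 0.057. MS1262 against vehicle gave Ccl12 -0.036 to 0.48, Cxcl5 -0.015 to 0.39, Cxcl16 -0.44 to 0.089. The ratio within wild-type gave Cxcl10 -0.32 to 1.38, Cxcl16 -0.53 to 0.54. The ratio within vehicle gave Cxcl16 -0.18 to 0.14, Cxcl5 -0.32 to 0.075. The ratio within MS1262 gave Ccl2 -0.45 to 0.69, Cxcl5 -0.029 to 0.21, Cxcl16 -0.45 to 0.045, Cxcl14 -0.017 to 0.072.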
